A study of Mus musculus with 36 samples.

Results

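The genes described here encode the enzymes of the mitochondrial respiratory chain and the ATP synthase. They were taken by symbol from the array's annotation: every gene whose name begins with Ndufa, Ndufb, Ndufc, Ndufs, Ndufv, Uqcr, Cox4 to Cox8 or Atp5. This gave 83 of the 17097 genes measured, and where a gene had several probe sets the brightest on average over the 36 arrays stood for it. Of these, 67 are subunits found across tissues: 32 of complex I, 7 of complex III, 11 of complex IV and 17 of ATP synthase. A further 7 are assembly factors of complex I (Ndufaf genes), 8 are isoforms known from particular tissues, and 1, Ndufs5-ps, carries a pseudogene symbol.

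The study followed mouse colon through colitis-associated carcinogenesis in wild-type (WT) mice and in mice lacking the interleukin-17 receptor subunit Il17rc (KO). Mice aged 6 to 8 weeks were left untreated or were given azoxymethane (AOM), a colon carcinogen, followed by dextran sulfate sodium (DSS), which injures the colonic epithelium. DSS was given at 3% in drinking water for 5 days, then plain water for 14 days, in 3 cycles. Colons were taken untreated at day 0, at day 7 and day 15 of AOM-DSS, and at day 63 as tumor, with 4 WT and 4 KO arrays at each of the first 3 stages and 6 WT and 6 KO arrays at the tumor stage. All 36 arrays were made from total RNA of minced colon tissue, and the labels of the tumor arrays do not say whether tumors were dissected from the surrounding wall. The labels give no promoter or cell type for the Il17rc deletion. The labels do not state whether each array came from a separate mouse, so p-values measure the spread between these arrays.

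The respiratory chain passes electrons from NADH (complex I) and succinate (complex II) through ubiquinone to complex III, then through cytochrome c to complex IV, which reduces oxygen. Complexes I, III and IV pump protons across the inner mitochondrial membrane, and ATP synthase uses their return to make ATP. Most subunits are encoded in the nucleus, as are all those described here, and differentiated colonocytes are known for burning butyrate by this route.

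Before the results, the arrays were set against their labels. Il17rc intensity was 76 to 515 on the WT arrays and 7 to 15 on all KO arrays except 2 labelled KO day 7: array 1, at 331, and array 2, at 44. Results at that stage are therefore given for arrays labelled KO day 7, with and without these 2. Krt5, a keratin of squamous epithelium that colon mucosa lacks, was above 100 on 7 arrays: 2 WT untreated, 2 WT day 7, 2 labelled KO day 7 and 1 KO tumor. The day 15 arrays numbered 4 had the most S100a8, a neutrophil gene, at 5585 in WT and 6239 in KO, against 7 to 2567 on the other arrays. KO tumor array 4 carried the Y-linked transcript Eif2s3y at 139, against 7 to 11 elsewhere. In bulk tissue, fewer cells of a type and less RNA per cell cannot be told apart.

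Respiratory chain genes were lower in tumors than in untreated colon more often than higher, by small amounts. In WT tumors 13 of the 83 genes fell and 2 rose (limma, adjusted p under 0.05 over all genes), beside 10.2% of all genes that were lower and 12.6% that were higher. The members called lower were 15.7% of the 83. In KO tumors 23 fell and 1 rose, beside 9.92% and 10.8% of all genes, and the members called lower were 27.7%. The median log2 difference of the 83 was -0.12 in WT and -0.19 in KO, where the medians of all genes were 0.02 and 0.01. Most members are bright, and among all genes with a mean intensity of 500 or more the called shares were larger: 18.9% lower and 21.4% higher in WT, and 21.9% and 21.5% in KO. Against that background the share of members called lower was below it in WT and above it in KO, while the share called higher was small in both.

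The direction was shared by most members. In WT tumors 67 of the 83 differences were negative and in KO tumors 74, with 63 negative in both; among all genes 32% were negative in both. Of the genes called in WT or KO, 9 fell in both (5.94% of all genes did), 4 fell in WT alone and 14 in KO alone. Of all genes 10.2% fell in WT and 9.92% in KO, and each share includes the 5.94% that fell in both. Ndufaf4 rose in WT alone, and Ndufa4 rose in both (7.05% of all genes did). The shares of all genes that rose were 12.6% in WT and 10.8% in KO, each including that 7.05%. No member was called in opposite directions. All 6 tumor arrays lay below all 4 untreated arrays for 13 members in WT and 34 in KO, where 6.01% and 8.97% of all genes were so separated. All tumor arrays lay above for 3 members in WT and 1 in KO, beside 7.53% and 10.2% of all genes. Of all genes 36% had a mean intensity under 16, where 5 of the 83 members did. For the counts in this paragraph, shares among genes of mean intensity 500 or more are not given. These counts are thus not set against genes of like brightness. Leaving out WT untreated array 4 reduced the WT calls from 15 to 8, and leaving out KO untreated array 1 reduced the KO calls from 24 to 14.

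**Figure D1:**
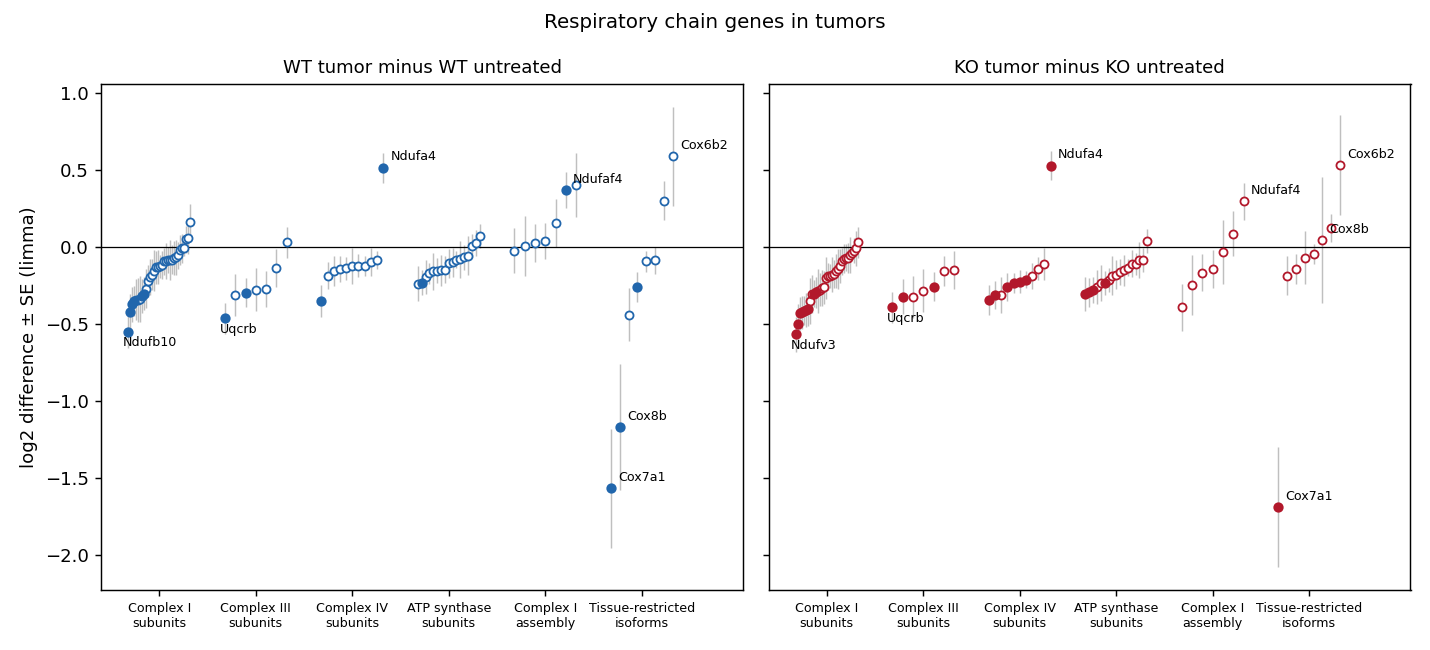
Log2 difference (tumor minus untreated, bars ± SE from limma) of the respiratory chain genes by role (Ndufs5-ps left out), WT on the left and KO on the right. Each circle is a gene, filled where the adjusted p was under 0.05. Most circles lie a little below 0, Ndufa4 stands above them in both genotypes, and Cox7a1 lies lowest at -1.57 and -1.69.

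Complex I had 6 of 32 subunits lower in WT tumors and 9 of 32 in KO tumors, with none higher in either, and the median differences were -0.13 and -0.19. These are 18.8% and 28.1% of the subunits, beside 18.9% and 21.9% of all genes of mean intensity 500 or more, so the WT share is near that background. Ndufb10, an accessory subunit of the membrane arm, had untreated WT intensities of 1247, 1381, 1239 and 1298, and WT tumor intensities from 774 through a median of 840.5 to 1021. Every tumor array was below every untreated array. The fall was 0.55 ± 0.11 on the log2 scale (SE, limma adjusted p = 0.000322), to 0.683 of the untreated level. In KO, untreated intensities of 1060, 1188, 1117 and 1232 stood against 780 to 894 in tumors with a median of 833.5, again without overlap, and the gene fell by 0.43 ± 0.11 (adjusted p = 0.00391).

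Ndufv3, an accessory subunit of the NADH-oxidising tip, read 2236, 2400, 2564 and 2405 in untreated WT colon and 1490 to 2237 (median 1789) in WT tumors. WT tumor array 6, at 2237, reached the lowest untreated array, and the other 5 did not. It fell by 0.42 ± 0.11 (adjusted p = 0.00696). In KO it read 2813, 2588, 2878 and 2605 untreated and 1642 to 2122 (median 1722.5) in tumors, with no overlap, and this was the largest fall among KO complex I subunits, 0.57 ± 0.11 (adjusted p = 0.000474). Ndufb8, of the membrane arm, fell in both genotypes without overlap, from 2191 ± 101 (SD, n = 4) to 1695 ± 141 (SD, n = 6) in WT (adjusted p = 0.00786) and from 2264 ± 72.2 to 1665 ± 107 in KO (adjusted p = 0.00217).

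Ndufb9, another membrane-arm subunit, fell by 0.37 ± 0.11 in WT (adjusted p = 0.0153) and 0.40 ± 0.11 in KO (adjusted p = 0.00934). Ndufa9, which sits where the arms join, fell by 0.32 ± 0.11 (adjusted p = 0.0361) and 0.41 ± 0.11 (adjusted p = 0.00716). These members held their direction in both genotypes. Ndufb4 passed in WT alone, and Ndufb7, Ndufa5, Ndufc1 and Ndufa11 in KO alone. In WT, leaving out a single array ended the Ndufb4 call in 8 of 10 fits, the Ndufa9 call in 6, and the Ndufb9 call when it was untreated array 3 or 4; in KO it ended the Ndufa11 call in 6 of 10. The difference between genotypes was tested for every member as an interaction and is given further on. Passing in 1 genotype alone does not show a difference between them. At the other end, the highest complex I differences were Ndufs4 in WT (0.16 ± 0.12, adjusted p = 0.363) and Ndufc2 in KO (0.03 ± 0.10, adjusted p = 0.89), neither past the threshold.

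**Figure D2:**
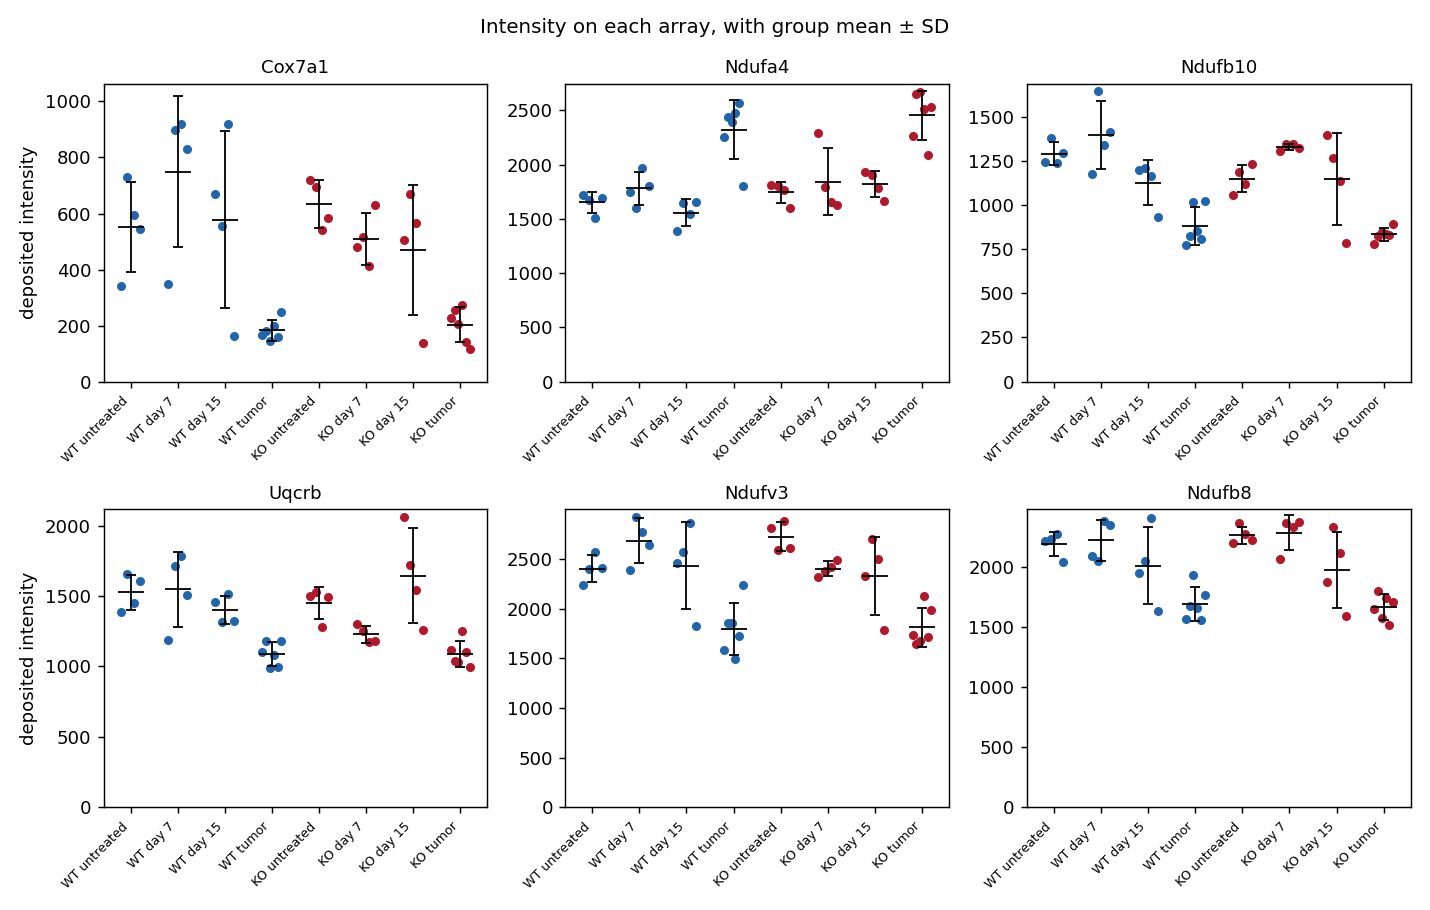
Deposited intensity (linear axis from 0) of 6 members on each of the 36 arrays, grouped by genotype and stage, with each group's mean ± SD as lines. Tumor arrays of Ndufa4 lie above the untreated arrays, and those of Cox7a1, Ndufb10, Uqcrb and Ndufb8 below them, in both genotypes; for Ndufv3 1 WT tumor array overlaps.

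Complex III, which hands electrons from ubiquinol to cytochrome c, had 2 of 7 subunits lower in WT tumors and 3 of 7 in KO tumors, with median differences of -0.28 in each. Beside these counts, 18.9% (WT) and 21.9% (KO) of all genes of mean intensity 500 or more were called lower. Uqcrb, a small subunit near the ubiquinone site, read 1389, 1655, 1454 and 1608 in untreated WT colon and 991 to 1182 (median 1093.5) in WT tumors. In KO it read 1501, 1530, 1283 and 1496 untreated and 995 to 1250 (median 1068.5) in tumors. Neither genotype overlapped. The falls were 0.46 ± 0.10 (limma adjusted p = 0.000989) and 0.39 ± 0.10 (adjusted p = 0.00456). Uqcrc2, a core protein of the complex, fell by 0.30 ± 0.09 in WT (adjusted p = 0.0205) and 0.26 ± 0.09 in KO (adjusted p = 0.0494); the KO value lies at the edge of the threshold. Uqcrfs1, the Rieske iron-sulfur protein, passed in KO (-0.32 ± 0.12, adjusted p = 0.0438). Leaving out a single array ended the KO calls of Uqcrc2 in 8 of 10 fits and of Uqcrfs1 in 7, and the WT call of Uqcrc2 when it was untreated array 4.

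Complex IV, cytochrome c oxidase, held both the member that rose most firmly and a group of modest falls. In KO tumors 6 of 11 subunits fell: Cox5b, Cox4i1, Cox5a, Cox6a1, Cox7a2 and Cox6b1, with differences between -0.34 and -0.21. Of all genes of mean intensity 500 or more, 21.9% were called lower in KO and 18.9% in WT. The share of complex IV subunits was above that background in KO and below it in WT. Leaving out a single array ended the Cox6b1 call in 8 of 10 fits, the Cox7a2 call in 5, and the Cox4i1 call when it was KO untreated array 1. In WT tumors Cox7a2l, which joins complexes III and IV into supercomplexes, was the single subunit that fell (-0.35 ± 0.10, adjusted p = 0.0137), and its tumor arrays overlapped the untreated ones since WT tumor arrays 3 and 6 stood at 1134 and 900 and WT untreated array 1 at 875. Its call was lost without WT untreated array 4. Cox6a1 read 7906, 8220, 8059 and 8239 in untreated KO colon and 6311 to 7360 (median 6760.5) in KO tumors, with no overlap. The gene fell by 0.21 ± 0.06 (limma adjusted p = 0.00649). In WT the Cox6a1 difference was -0.08 ± 0.06 and did not pass (adjusted p = 0.308).

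Ndufa4 went the other way. First named as a complex I subunit, it is now known as a subunit of complex IV. Untreated WT intensities were 1724, 1678, 1511 and 1694, and WT tumors ran from 1805 through a median of 2415 to 2567. In KO, untreated intensities were 1809, 1805, 1767 and 1597, and tumors ran from 2091 through 2523.5 to 2667. All 12 tumor arrays were above all untreated arrays of their genotype. The rise was 1.43-fold in WT (log2 0.52 ± 0.10, limma adjusted p = 0.000193) and 1.44-fold in KO (0.53 ± 0.10, adjusted p = 0.000151). It kept its direction and its call in all 21 alternative fits in WT and all 22 in KO, with log2 differences of 0.47 to 0.59 in WT and 0.48 to 0.57 in KO.

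AA467197, the mouse gene of an Ndufa4-like protein known to take the place of Ndufa4 in complex IV, does not carry a symbol of the chain and was looked at after its values were seen. It read 2337, 3118, 3560 and 3763 in untreated WT colon and 1891 to 2705 (median 2354.5) in WT tumors, which overlap. In KO it read 3416, 3241, 3093 and 3361 untreated and 1369 to 2994 (median 1878) in tumors, which do not. It fell by 0.40 ± 0.14 in WT (limma adjusted p = 0.0302) and by 0.66 ± 0.14 in KO (adjusted p = 0.000538), opposite in sign to Ndufa4.

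ATP synthase had 1 of 17 subunits lower in WT tumors and 4 of 17 in KO tumors, and its median differences were -0.11 and -0.18. Of all genes of mean intensity 500 or more, 18.9% were called lower in WT and 21.9% in KO. The WT share of subunits was below that background and the KO share near it. Atp5b, the catalytic beta subunit, read 3799, 4473, 4693 and 4445 in untreated WT colon and 3472 to 3819 (median 3561) in tumors. WT untreated array 1 lay within the tumor range and the other 3 above it. The fall was 0.23 ± 0.08 (limma adjusted p = 0.0448). The call was lost in 12 of 21 alternative fits, 8 of them leaving out a single array, and the difference was as small as -0.09. In KO Atp5b fell by 0.28 ± 0.08 (adjusted p = 0.0145), joined by Atp5k (-0.29 ± 0.09) and Atp5a1 (-0.23 ± 0.08), a small membrane subunit and the alpha subunit, and by Atp5o (-0.31 ± 0.11, adjusted p = 0.0463), part of the stator stalk. Leaving out a single array ended the Atp5a1 and Atp5o calls in 8 of 10 fits each, the Atp5k call in 5, and the Atp5b call when it was KO untreated array 1. Atp5g3, which encodes the c subunit of the rotor ring, went from 5010 ± 181 to 4627 ± 145 in WT and from 5110 ± 237 to 4670 ± 116 in KO without passing.

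The assembly factors of complex I are not subunits, and their sign was mixed: 6 of 7 differences were positive in WT tumors and 2 of 7 in KO tumors. Ndufaf4, which helps build the ubiquinone-binding module, read 395, 385, 322 and 381 in untreated WT colon and 402 to 537 (median 471) in WT tumors. All tumor arrays were higher, by 0.37 ± 0.12 (limma adjusted p = 0.0228), a call lost without WT untreated array 3 or WT tumor array 4. In KO it read 412, 445, 367 and 405 untreated and 413 to 666 (median 466.5) in tumors, with overlap, and the difference of 0.30 ± 0.12 did not pass (adjusted p = 0.0778). Ndufaf6, another assembly factor, had the highest WT difference, 0.40 ± 0.21, and did not pass either (adjusted p = 0.163).

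The tissue isoforms held the largest change. Cox7a1 is the heart and muscle form of a complex IV subunit whose other form is Cox7a2. Untreated intensities were 342, 732, 593 and 543 in WT and 719, 694, 540 and 585 in KO. WT tumors ran from 146 through 173.5 to 250, and KO tumors from 115 through 216.5 to 275. No tumor array reached an untreated array of its genotype. Cox7a1 fell by 1.57 ± 0.39 in WT (limma adjusted p = 0.00336), to 0.338 of the untreated level, and by 1.69 ± 0.39 in KO (adjusted p = 0.00179), to 0.31. When the letter in each array's title code was added as a block, the WT difference was -1.32 and missed the threshold (limma adjusted p = 0.0509).

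Smooth muscle markers were lower in the same tumors: 12 of 12 were called lower in WT, with a median difference of -1.83, and 10 of 12 in KO, with a median of -1.49. Of all genes, 10.2% were called lower in WT and 9.92% in KO. The summed intensity of the 12 was 32340 to 41286 in untreated WT colon and 10761 to 28402 in WT tumors, and 28234 to 31566 and 4574 to 25054 in KO. The defining markers Myh11 and Des were still detected in every group, at medians of 409.5 and 305.5 in WT tumors. The part of muscle content in the Cox7a1 difference was not tested.

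The 250 bases before the Cox7a1 start site are shown because this gene moved most, and those of Ndufa4 because it rose; they are from RefSeq on GRCm38.p6, 5′ to 3′ on the gene's strand, at chr7:30183921-30184170 (plus strand) and chr6:11907451-11907700 (minus strand). All letters are in lower case because none of the 3 motifs searched, described further on, occurs in them.
Cox7a1: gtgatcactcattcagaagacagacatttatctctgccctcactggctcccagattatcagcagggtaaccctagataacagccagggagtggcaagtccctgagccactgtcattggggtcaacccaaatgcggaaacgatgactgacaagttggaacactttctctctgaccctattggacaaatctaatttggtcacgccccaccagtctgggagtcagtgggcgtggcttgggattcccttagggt
Ndufa4: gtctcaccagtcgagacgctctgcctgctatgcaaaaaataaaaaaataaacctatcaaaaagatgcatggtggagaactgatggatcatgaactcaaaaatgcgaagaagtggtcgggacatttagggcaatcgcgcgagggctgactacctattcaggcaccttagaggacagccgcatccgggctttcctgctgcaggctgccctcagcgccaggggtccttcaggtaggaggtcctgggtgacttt

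Cox8b, the complex IV isoform of rodent muscle and brown fat, was near background on most arrays and high on 1. Untreated WT intensities were 15, 282, 20 and 21, and every tumor array of either genotype lay between 13 and 19. Its fall in WT tumors, 1.17 ± 0.41 (limma adjusted p = 0.0368), rested on WT untreated array 2, and the call also ended without any 1 of WT tumor arrays 1 to 5: without untreated array 2 the difference was -0.21 with an adjusted p of 0.424. The same array carried Ucp1, the uncoupling protein of brown fat, at 386 and Cidea, another brown fat gene, at 317, where its fellow untreated arrays read 10 to 14 and 10 to 16. Adipoq, a gene of all fat, was 561 there, while Elovl3, also raised in active brown fat, was 15. On KO day 15 array 1, Cox8b at 34, Ucp1 at 69 and Cidea at 52 were again above the rest of the group. The summed brown fat list (5 genes without Cox8b) was 760 on WT untreated array 2 and nearly as high, 754, on WT day 15 array 4, where Ucp1 was 9, Cidea 13 and Cox8b 15. The part of fat in the Cox8b value was not tested.

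**Figure D3:**
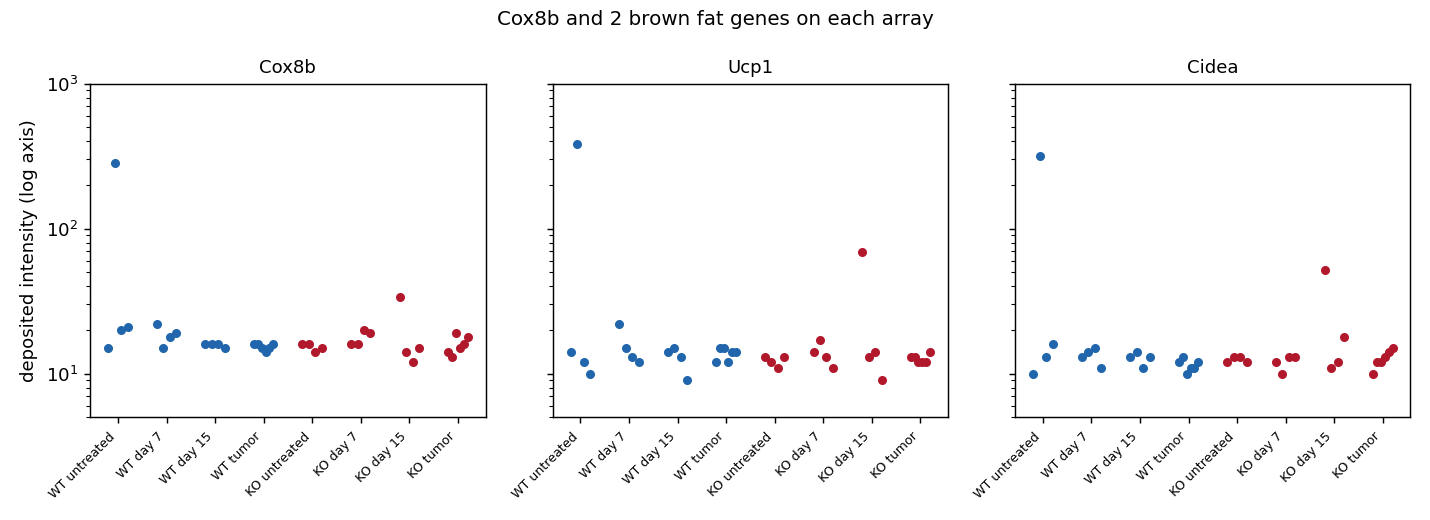
Deposited intensity (log axis) of Cox8b, Ucp1 and Cidea on each array, by genotype and stage. WT untreated array 2 is high in all 3 panels (282, 386 and 317), KO day 15 array 1 is raised in all 3 (34, 69 and 52), and the remaining arrays lie between 9 and 22.

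Cox6b2, the testis form of a complex IV subunit, had the highest tumor differences of this group, 0.59 ± 0.32 in WT and 0.53 ± 0.32 in KO, without passing (limma adjusted p = 0.201 and 0.283). Untreated intensities were 23, 28, 26 and 28 in WT and 29, 28, 26 and 31 in KO. Tumors ran from 30 through 41.5 to 50 in WT, all above untreated, and from 23 through 43 to 79 in KO. The remaining 5 isoforms had mean intensities under 16, close to the array medians of 14 to 16: Cox4i2 (lung), Cox6a2 (heart and skeletal muscle), Cox7b2 and Cox8c (testis) and Ndufa4l2 (induced by hypoxia). Cox8c was called lower in WT tumors at 13 to 16 against 15 to 21 (adjusted p = 0.0485), a change among values near background that 7 of 10 fits without a single array did not call. Ndufa4l2 reached 36 on WT untreated array 1 and stayed at 10 to 15 on every other array.

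Across arrays the 67 subunits moved as a set by small steps. For each array the median over subunits was taken of the log2 level minus that gene's mean over all arrays. It was -0.03 to 0.13 in untreated WT colon and -0.19 to -0.04 in WT tumors, and 0.07 to 0.12 in untreated KO colon and -0.22 to -0.00 in KO tumors. All tumor arrays thus lay below the untreated arrays of their genotype. The lowest medians were not in tumors: the day 15 arrays numbered 4 stood at -0.30 in WT and -0.40 in KO, while the other day 15 arrays stood at 0.03 to 0.22 and 0.00 to 0.19.

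**Figure D4:**
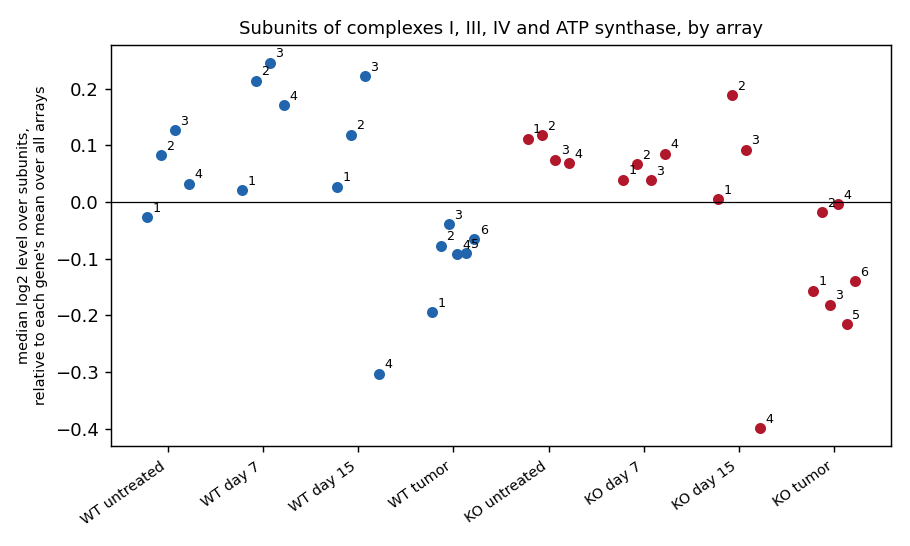
Median log2 level over 67 subunits on each array, relative to each gene's mean over all arrays, by genotype and stage; numbers are the arrays' replicate numbers. The day 15 arrays numbered 4 lie lowest, at -0.30 (WT) and -0.40 (KO), and tumor arrays lie below the untreated arrays of their genotype.

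Those arrays, which had the most S100a8, differed from their groups in isoforms too. Cox7a1 was 161 on WT day 15 array 4 and 136 on KO day 15 array 4, where the others read 557 to 920 and 505 to 671. Cox6b2 was 161 and 87, where the others read 30 to 37 and 23 to 42. The summed intensity of 10 neutrophil markers reached 15964 in WT and 23183 in KO at day 15, against group medians of 2392.5 and 4228. Absorptive colonocyte markers were lowest on the same arrays, at 14354 where the other WT day 15 arrays had 24060 to 34225, and at 12489 where the other KO arrays had 23904 to 26602. Macrophage markers were highest there, at 8833 against 3623 to 7349 in WT and 15413 against 5055 to 7997 in KO. The part of these cells in the subunit levels was not tested.

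At day 7, no member passed in WT (limma; 1.66% of all genes did, 0.304% higher and 1.35% lower), with 11 of the 83 at an unadjusted p under 0.05. Where nothing differs, 5% of tests reach that unadjusted p on average, and the share of all genes reaching it is not given here. The median difference was 0.11 and 73 of the 83 were positive. On the arrays labelled KO day 7, 6 members fell and 2 rose, 9.64% of the 83 beside 12.2% of all genes (5.64% higher and 6.58% lower), with a median difference of -0.05. Marker sums moved at the same time: proliferation genes summed to 6450 to 8046 in untreated KO colon and 2072 to 3279 on the day 7 arrays, and macrophage markers to 2828 to 4340 and 714 to 1621, neither overlapping. Squamous markers reached 14848 and 3594 on day 7 arrays 1 and 2, where arrays 3 and 4 had 210 and 194. Their part in the differences was not tested. Ndufaf3, an assembly factor that works with Ndufaf4, led the falls: untreated KO intensities were 283, 283, 302 and 290, and day 7 intensities 149, 168, 172 and 180. The groups did not overlap, and the fall was 0.73 ± 0.17 (limma adjusted p = 0.00391). Ndufaf5, an assembly factor that modifies a complex I subunit, fell by 0.73 ± 0.21 (adjusted p = 0.0217).

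Of the subunits on those arrays, Ndufs8, a core iron-sulfur protein of complex I, fell by 0.39 ± 0.10 (limma adjusted p = 0.00667). Ndufs4, an accessory subunit of the NADH-oxidising module, read 848, 761, 753 and 666 untreated and 528, 529, 528 and 491 at day 7, a fall of 0.49 ± 0.13 (adjusted p = 0.0118). The 4 day 7 arrays were close to each other and all below the untreated ones. Atp5o and Atp5b also fell, and Cox7a2l and Ndufa2, a complex I accessory subunit, rose by 0.37 ± 0.11 and 0.16 ± 0.05. Leaving out a single array ended the Ndufa2 call in 8 of 8 fits, that of Atp5b in 6, of Cox7a2l in 5, of Ndufaf5 in 4 and of Atp5o in 3 (KO untreated array 1, KO day 7 arrays 2 and 3). Under median centring and with no further normalization no member was called higher and 9 were called lower. Without arrays 1 and 2, whose Il17rc went against the label, 4 of the 8 calls remained, all lower, and leaving out any 1 array gave 4 to 7 calls.

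At day 15 no member passed in either genotype (limma). In WT 3.38% of all genes did, 2.1% higher and 1.28% lower, and in KO 0.813%, 0.491% higher and 0.322% lower. Of the members, 5 in WT and 9 in KO had an unadjusted p under 0.05, which 5% of tests reach on average where nothing differs. The share of all genes reaching it is not given here, so these counts are not read as a result about the members. All 5 in WT were tissue isoforms: Cox8b, Cox6b2, Cox8c, Ndufa4l2 and Cox6a2. Of these, Cox8c, Ndufa4l2 and Cox6a2 had mean intensities under 16. The median differences were -0.05 and -0.11. Set against day 15, tumors had 8 members called in each genotype, 7 lower and 1 higher. Of all genes 7.77% were lower and 12.2% higher in WT, and 6.1% and 8.56% in KO. The share of members called lower was near that of all genes in WT and a little above it in KO. Shares among genes of mean intensity 500 or more are not given for this comparison. Ndufa4 was the 1 that rose, by 0.58 ± 0.10 in WT (adjusted p = 5.43e-05) and 0.48 ± 0.10 in KO (adjusted p = 0.000936). Uqcrb, Cox5a, Cox6a1 and Ndufb10 fell in both. Leaving out a single array ended the KO call of Cox6a1 in 7 of 10 fits, the WT calls of Cox5a and Cox6a1 without WT day 15 array 3, and the Ndufb10 calls without any of WT day 15 arrays 1 to 3 or KO day 15 arrays 1 and 2. The 4 WT day 15 arrays of Ndufa4, at 1388, 1649, 1544 and 1652, and the 4 KO arrays, at 1931, 1902, 1780 and 1666, lay below all tumor arrays of their genotype.

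These counts turned on the day 15 arrays numbered 4. Without both, 40 members were called in WT, 39 of them lower, and 29 in KO, 28 of them lower; the 8 earlier calls were kept in each. Leaving out WT day 15 array 4 alone gave 27 WT calls and WT day 15 array 3 alone 5. In KO, leaving out day 15 array 4 alone gave 20 calls, day 15 arrays 1 or 2 gave 4, and tumor arrays 3 or 6 gave 5. The shares of all genes called in these fits are not given here. The counts without those arrays are therefore not read as a result about the members.

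The genotypes themselves were then compared at each stage, the question the Il17rc deletion poses. No member was called between KO and WT in untreated colon, between the arrays labelled KO and WT at day 7, at day 15 or in tumors (limma), where 2.28%, 0.298%, 0.222% and 0.0526% of all genes did. In that order, 1.79%, 0.0877%, 0.17% and 0.0117% of all genes were higher in KO, and 0.485%, 0.211%, 0.0526% and 0.0409% lower. At an unadjusted p under 0.05 the counts were 5, 16, 0 and 0 of the 83. Where nothing differs, 5% of tests reach that p on average. The share of all genes reaching it is not given here, so these counts are not read as a result about the members. Without the 2 arrays labelled KO day 7 whose Il17rc went against the label, 0 members were called at day 7 as well, with a median difference of -0.12. In tumors the differences of all 83 lay between -0.12 and 0.11, with 95% intervals that reached from -0.71 (Cox8b) to 0.81 (Cox7a1). For Ndufa4 the tumor difference, KO minus WT, was 0.09 with a 95% interval from -0.09 to 0.26, and for Cox7a1 0.10 with an interval from -0.60 to 0.81.

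In the comparisons at each stage, the nearest approaches were in assembly factors and 1 subunit. Ndufaf3 in untreated colon read 155, 243, 238 and 189 in WT, below all 4 KO arrays at 283 to 302, yet the difference of 0.53 ± 0.17 did not pass (limma adjusted p = 0.119). At day 7 Ndufs4 was lower on the arrays labelled KO by 0.43 ± 0.13 (adjusted p = 0.151). Without WT day 7 array 1, 6 members were called lower in KO at that stage. That array's median over subunits was 0.02 where the others had 0.17 to 0.25, so leaving it out raises the WT level. Of 8 fits without a single array it was the 1 whose count moved from 0. The share of all genes called in that fit is not given here, so its count is not read as a result about the members. For the change from untreated to tumor, no member was called different between genotypes (interaction, limma). Of all genes 0.784% passed, 0.0702% upward and 0.714% downward. The share of all genes at an unadjusted p under 0.05 is not given here, and 3 of the 83 members stood there. These were the dim isoform Cox6a2 (-0.49 ± 0.18, limma adjusted p = 0.34), Ndufaf3 (-0.55 ± 0.22, adjusted p = 0.444) and Cox8b (1.21 ± 0.58, adjusted p = 0.597).

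Other mitochondrial genes of the tumors moved in different directions by group. Of 18 genes of the tricarboxylic acid cycle and its entry points, which supply the chain with NADH, 9 fell in WT tumors and 7 in KO tumors and none rose. Of all genes 10.2% and 9.92% were called lower, and of those of mean intensity 500 or more 18.9% and 21.9%. Pcx, pyruvate carboxylase, fell by 1.88 ± 0.27 and 2.08 ± 0.27 (limma adjusted p = 8.04e-06 and 2.11e-06), and Cs, citrate synthase, by 0.50 ± 0.13 and 0.78 ± 0.13. In complex II, the succinate dehydrogenase whose genes the symbol rule leaves out, Sdha fell in both genotypes (-0.41 ± 0.11 and -0.39 ± 0.11), Sdhc and Sdhb passed in KO, and the assembly factor Sdhaf1 rose by 1.17 ± 0.21 and 1.19 ± 0.21 (adjusted p = 0.000152 and 0.000133).

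Genes that import and translate mitochondrial proteins were called higher more often than lower. Of 21 import and chaperone genes, 7 rose in WT tumors and 9 in KO tumors, and none fell. Of all genes 12.6% and 10.8% were called higher, and of those of mean intensity 500 or more 21.4% and 21.5%. Hspe1, the small subunit of the matrix chaperonin, rose by 0.62 ± 0.12 and 0.41 ± 0.12 (limma adjusted p = 0.000223 and 0.0104), and Timm10, a carrier chaperone between the membranes, by 0.52 ± 0.11 and 0.43 ± 0.11. Of 68 mitochondrial ribosomal proteins, 14 rose and 2 fell in WT, and 12 rose and 2 fell in KO. The shares called higher were above the 12.6% and 10.8% of all genes. They were near or below the 21.4% and 21.5% of genes of mean intensity 500 or more. Mrpl13 rose by 0.40 ± 0.08 and 0.38 ± 0.08, while Mrpl14 fell by 0.53 ± 0.14 and 0.54 ± 0.14.

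Among 20 regulators of mitochondrial biogenesis, 2 rose and 6 fell in WT tumors and 3 rose and 6 fell in KO tumors. Beside this list and those that follow, 10.2% of all genes were called lower and 12.6% higher in WT tumors. In KO tumors the shares were 9.92% and 10.8%. Among genes of mean intensity 500 or more they were 18.9% lower and 21.4% higher in WT, and 21.9% and 21.5% in KO. Ppargc1b, a coactivator of respiratory genes, fell by 1.42 ± 0.26 and 1.66 ± 0.26 (limma adjusted p = 0.000185 and 2.83e-05), and the nuclear receptor Esrrg by 2.06 ± 0.27 and 1.64 ± 0.27. Gabpb1, a subunit of the ETS factor GABP, also called NRF-2, rose by 0.56 ± 0.14 and 0.40 ± 0.14 (adjusted p = 0.00381 and 0.0382). Of 19 glycolysis and lactate genes, 5 fell in WT and 7 in KO, among them Hk1, a hexokinase, and Slc16a1, a monocarboxylate carrier that also takes up butyrate; 1, the lactate exporter Slc16a3, rose in KO (0.51 ± 0.15, adjusted p = 0.0129). Absorptive colonocyte markers were lower in the same tumors, 11 of 19 called lower and 1 higher in each genotype, with medians of -1.43 and -1.18. The part of colonocyte content in the mitochondrial differences was not tested.

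**Figure D5:**
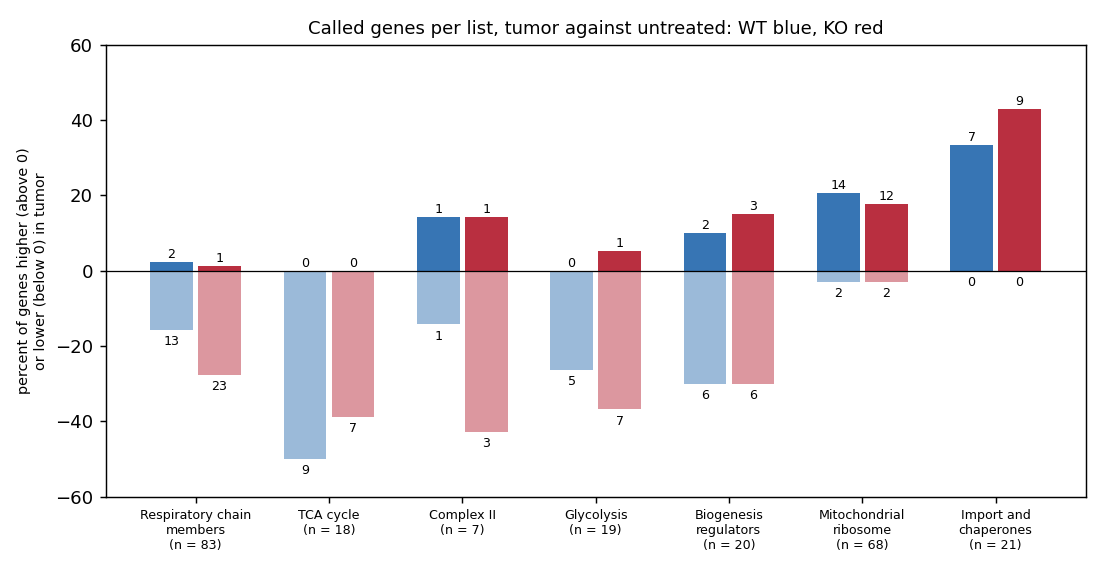
Percent of each gene list called higher (above 0) or lower (below 0) in tumors against untreated colon, WT in blue and KO in red, with the number of genes at each bar. The respiratory chain and the tricarboxylic acid cycle have mostly lower calls, and import genes only higher ones (7 and 9 of 21).

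The promoters of the members were searched for motifs of factors known to drive respiratory genes, since most members shared a direction in tumors. RefSeq promoters were given for 67 of the 83, and the 250 bases before the start were searched on both strands. The NRF-1 palindrome, which stands in capitals in the sequences of Ndufaf4, Atp5k, Atp5g2 and Ndufa11 given with it, was found in 5 members, 7.46% of the 67, beside 1.44% of the measured genes with a promoter in the table and 0.877% of all promoters' genes. The ETS core of GABP, CCGGAAG, was found in 11 members, 16.4%, beside 11.8% and 7.83%, and the YY1 core AAGATGGC in 1, 1.49%, beside 2.07% and 1.83%. The ETS and YY1 letters share the run AAG and can overlap in 1 stretch, and Atp5j held both. Of the 21 members in the table that fell in either genotype's tumors, 3 held the NRF-1 palindrome, beside 2 of the 46 others. For the ETS core the counts were 3 of 21 and 8 of 46, and for the YY1 core 0 of 21 and 1 of 46. No test was made of these counts.

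The members with the palindrome are shown because their calls differed. Cox6a1, Atp5k and Ndufa11 fell in KO tumors, Ndufaf4 rose in WT tumors, and Atp5g2, a c subunit gene, was not called in either. By sign alone, Ndufaf4 was positive in both genotypes and the others, Atp5g2 among them, were negative in both. The promoter of Cox6a1 is given whole on GRCm38.p6 at chr5:115348959-115349208 (minus strand), with the palindrome and, near the 3′ end, the ETS core read on the other strand in capitals. For the other 4, 40 bases around the palindrome (in capitals) are given, at chr4:24897955-24897994 (plus strand, Ndufaf4), chr5:108434425-108434464 (minus strand, Atp5k), chr15:102671065-102671104 (minus strand, Atp5g2) and chr17:56717687-56717726 (plus strand, Ndufa11). The palindrome begins at -162 in Cox6a1, -113 in Ndufaf4, -50 in Atp5k, -42 in Atp5g2 and -60 in Ndufa11, counted in bases from the start. A match is a run of letters and shows no binding.
Cox6a1: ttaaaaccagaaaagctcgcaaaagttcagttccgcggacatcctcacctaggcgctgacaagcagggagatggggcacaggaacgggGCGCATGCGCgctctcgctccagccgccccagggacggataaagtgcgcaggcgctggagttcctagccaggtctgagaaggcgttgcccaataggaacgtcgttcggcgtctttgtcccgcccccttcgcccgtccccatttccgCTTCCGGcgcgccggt
Ndufaf4: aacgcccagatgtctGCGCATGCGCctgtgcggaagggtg
Atp5k: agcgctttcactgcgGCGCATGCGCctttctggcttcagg
Atp5g2: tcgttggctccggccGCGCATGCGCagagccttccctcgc
Ndufa11: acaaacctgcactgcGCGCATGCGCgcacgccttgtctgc

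The choice of probe set was also checked. Of the 47 other probe sets of members with a mean intensity of at least 16, 43 had the sign of the chosen probe set in WT tumors and 46 in KO tumors. For members that were called, 6 of 6 and 14 of 14 other probe sets had the same sign.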

How the data were processed

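Total RNA of mouse colon was measured on 36 Affymetrix arrays, 1 deposited table with 1 intensity column per array. The authors' values are linear intensities of 45037 probe sets; how background was corrected and arrays normalized is not given in the sources used here. Of the probe sets, 28898 name 1 gene, and the brightest on average stood for each of 17097 genes. For the tests, log2(intensity + 1) was quantile normalized and fitted with limma 3.58.1 in R 4.3.3 (8 group means, all 36 arrays, intensity trend), with Benjamini-Hochberg adjustment over all genes and a threshold of 0.05; every adjusted p, SE and 95% interval is limma's. Intensities are printed as deposited. The number of arrays limits the precision.

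The members and lists were chosen with earlier results of these data known. Named were, per role and comparison, up to 4 called members of smallest p, the brightest member, the largest tumor rise and fall, all tissue isoforms, up to 4 genes per other list, and Il17rc. AA467197, Mrpl14, Gabpb1, Slc16a3 and the called members beyond the smallest 4 p-values of a role were chosen after their values were seen. The fit was tested on simulated data. Same-numbered arrays deviated together in every pair (correlation over 0.1) for WT day 7 against untreated and for KO against WT at day 15, where no member was called with or without the block. Alternatives were scaling, pseudocount 16, dim genes left out, the mean of probe sets, no trend, blocks, only the groups compared, and arrays left out.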

Additional observations from a re-analysis of the deposited data

Results flagged for a closer look

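In 9 of 136 groups of 4 or 6 arrays of the members described, 1 array stood apart from the rest by Dixon's test; chance alone gives about 1 in 20 groups. In 4 of them it was a day 15 array numbered 4: Ndufb10 at 935 (others 1166 to 1208), Ndufaf3 at 162 (248 to 259) and Cox6b2 at 161 (30 to 37) in WT, and Atp5b at 3066 (4029 to 4190) in KO. Cox8b was high on WT untreated array 2, at 282 (others 15 to 21). Cox7a1 was low on WT day 7 array 1, at 349 (829 to 921), and Ndufa4 on KO untreated array 4, at 1597 (1767 to 1809). In WT tumors Ndufa9 was low on array 1, at 934 (1098 to 1164), and Cox7a2l high on array 3, at 1134 (774 to 900).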

How the results depend on the processing

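Of 279 alternative counts of called members, 239 were within 1.5 times the reported count, and in 1733 alternative fits of 81 gene results, 296 lost the call and 10 gained it. No called result changed sign, while 7 fits of 5 uncalled results did (Ndufaf3 and Ndufa4l2 in WT tumors, and Cox8b, Cox7b2 and Ndufa4l2 in KO tumors). The causes were not tested beyond what each alternative removes. WT tumors against untreated (15 called) gave 5 with the title code's letter as a block. Arrays labelled KO day 7 against untreated (8) gave 5 with the mean of probe sets, 1 with the letter block and 18 with only the groups compared. Tumors against day 15 (8 in each genotype) gave 4 in WT and 5 in KO under median centring, and 5 and 2 with only the groups compared. Chosen after seeing the data were 4 alternatives without arrays that stood apart. Without KO day 7 arrays 1 and 2, 4 were called. Without the day 15 arrays numbered 4, tumors against day 15 gave 40 in WT and 29 in KO, and WT day 15 against untreated 1. Without the 7 arrays high in Krt5, 1 member was called in WT day 15 against untreated and 1 each in KO against WT untreated and at day 7. Leaving out the KO tumor array with Y-linked RNA moved no count by over 1.5 times. For the alternative fits, the shares of all genes called are not given here.

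Leaving out each array in turn gave 8 to 17 calls for WT tumors and 14 to 26 for KO tumors against untreated, 5 to 27 and 4 to 20 against day 15, and 4 to 7 for KO day 7. It gave 0 to 1 at day 15 in each genotype and for untreated KO against WT, 0 to 6 for KO against WT at day 7, and 0 elsewhere.

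The replicate number as a block gave 9 calls for WT tumors and 11 for KO tumors against untreated, 2 and 0 against day 15, and 12 for KO day 7. The labels do not state whether these numbers pair arrays. In these comparisons same-numbered arrays did not deviate together in every pair. The block moved no other count. Members with a mean intensity under 16 are too dim here for a change to be read.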

Other observations

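Cytochrome c and its partner in complex III fall outside the symbols used here. Cyc1, the cytochrome c1 of complex III, fell in KO tumors by 0.38 on the log2 scale (limma adjusted p = 0.0428) and differed by -0.22 in WT (adjusted p = 0.256). Cycs, cytochrome c itself, differed by 0.28 in WT and -0.27 in KO without passing (adjusted p = 0.0885 and 0.114). Its untreated levels differed: 1997 to 2110 in WT and 3011 to 3222 in KO, higher by 0.58 (limma adjusted p = 0.0077). In tumors KO minus WT was 0.04, not called. The change to tumor was not called different between genotypes (interaction, limma adjusted p = 0.175). On the arrays labelled KO day 7 Cycs was lower than in untreated KO colon by 0.82 (limma adjusted p = 4.84e-05). In the tumors, proliferation genes rose in 10 of 19 cases in WT and 5 of 19 in KO, and none fell, beside 12.6% and 10.8% of all genes called higher. Macrophage markers rose in 9 of 13 cases in WT and 1 of 13 in KO; for neither list was the difference between genotypes tested.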
